A study of Mus musculus with 9 samples.

Results

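The genes described here encode the nuclear subunits and assembly factors of respiratory complex III, complex IV and the ATP synthase in mouse oocytes. They were chosen by symbol, as every gene whose symbol starts with Uqcr, Atp5 or Cox followed by a digit, which gave 51 of the 24736 genes in the tables. Of these, 8 encode complex III subunits, 18 complex IV subunits, 9 complex IV assembly factors and 15 ATP synthase subunits, 5 of the catalytic F1 part and 10 of the membrane part Fo or the peripheral stalk. The remaining gene, Atp5s, carries the current symbol Dmac2l and is not a subunit.

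Complex III (ubiquinol-cytochrome c reductase) passes electrons from ubiquinol to cytochrome c, and complex IV (cytochrome c oxidase) passes them on to oxygen. Both pump protons across the inner mitochondrial membrane, and the ATP synthase lets the protons flow back to drive the synthesis of ATP. Each of the 3 complexes is built from nuclear-encoded subunits together with at least 1 subunit encoded by mitochondrial DNA. The oocyte carries many mitochondria, is thought to depend mainly on oxidative phosphorylation of pyruvate supplied by its cumulus cells, and passes its mitochondria to the embryo.

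Levels were measured by RNA sequencing in 9 libraries from ICR female mice, an outbred stock, with 15 oocytes arrested at the second meiotic metaphase pooled from 1 mouse in each library. KYZY mice (3 libraries) had 6 weeks of daily stressors and then 4 weeks of 0.1 ml per day of a decoction of the herbal recipe Kai Yu Zhong Yu by gavage. Stress mice (3 libraries) had the stressors of the chronic unpredictable mild stress (CUMS) model, such as tail pinch, cold swim and restraint. Their stressors also lasted 6 weeks, and they had no recipe. Control mice (3 libraries) had neither. All mice were labelled as 4 to 5 weeks old, without saying at which point of the protocol, and all were superovulated with 7.5 IU of PMSG and 7.5 IU of hCG. Oocytes were taken from the oviducts 16 hours after hCG and freed of cumulus cells with hyaluronidase. The labels described the sequencing step differently for KYZY than for stress and control libraries, and whether they were run separately is not stated. There was no group given the recipe without stress.

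Total counts were 46324094 to 106990821 per library, and 13257 to 15802 genes had a value above 0. The 20 oocyte markers were above the detection floor in all 9 libraries, with a sum of 72564 to 119911 CPM (the count of a gene relative to the total of its library, scaled by TMM to a common size, the unit of all levels unless said otherwise). Of the genes on mitochondrial DNA the tables held 0, and the subunits encoded there were not analysed here. The detection floor was set at 12 counts, or 0.105 to 0.245 CPM per library, and covers counting error only. Markers of other cells also differed between libraries. Serpine2 and Sdc1 among the cumulus and granulosa markers, Cdh1 and Ehf among the oviduct markers and Ms4a1 among the blood and immune markers were at 20 CPM or more in all 9 libraries and were left out of the sums, a choice made after the data were seen. The other 31 cumulus and granulosa markers summed to 60.2, 509 and 767 CPM in KYZY 1, 2 and 3, 41.9, 61.1 and 114 CPM in stress 1, 2 and 3, and 38.2, 59.6 and 406 CPM in control 1, 2 and 3. With Serpine2 and Sdc1 the sums were 789, 1919 and 1360 CPM in KYZY, 720, 761 and 1464 CPM in stress and 759, 641 and 936 CPM in control libraries. Of all 33, 12, 27 and 27 were above the floor in the KYZY libraries, 10, 16 and 23 in the stress libraries and 9, 16 and 25 in the control libraries. Cyp11a1, the first enzyme of steroid synthesis in granulosa cells, had 6.35, 165 and 428 CPM in KYZY, 1.12, 10.6 and 14.7 CPM in stress and 0.480, 8.76 and 228 CPM in control libraries, while Areg, which encodes a cumulus growth factor, was at 0 in all 9.

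The 16 stroma and endothelium markers summed to 25.8, 61.9 and 116 CPM in KYZY, 28.4, 35.7 and 39.0 CPM in stress and 30.9, 45.6 and 88.7 CPM in control libraries. Of these 16, 8, 7 and 15 were above the floor in KYZY, 9, 13 and 7 in stress and 6, 12 and 16 in control libraries. The 14 other oviduct markers summed to 15.6, 13.2 and 45.7 CPM in KYZY, 10.3, 15.6 and 10.5 CPM in stress and 19.2, 16.4 and 36.4 CPM in control libraries, and 389 to 626 CPM in KYZY, 482 to 537 CPM in stress and 406 to 648 CPM in control libraries with Cdh1 and Ehf. Of the whole list of 16, 6, 9 and 13 were above the floor in KYZY, 5, 11 and 7 in stress and 6, 8 and 13 in control libraries, and Pax8 was at 0 in 8 of the 9. The 16 other blood and immune markers summed to 0.805, 65.3 and 13.5 CPM in KYZY, 0.920, 2.84 and 1.49 CPM in stress and 0.595, 1.41 and 10.7 CPM in control libraries, and the whole list of 17 to 85.7 to 148, 86.7 to 111 and 94.9 to 108 CPM in KYZY, stress and control libraries. Of the 17, 3, 10 and 7 were above the floor in KYZY, 2, 6 and 3 in stress and 2, 3 and 7 in control libraries, and the haemoglobin gene Hbb-bs was at 0 in all 9. KYZY 2, KYZY 3 and control 3 thus had the highest of these sums of cumulus, stroma and blood markers, and KYZY 3 and control 3 those of oviduct markers. Some of the sums rested on few genes. In KYZY 2 the stroma sum was mostly Fn1, Pecam1 and Vim (22.9, 17.5 and 16.7 CPM), and 6 stroma markers were at 0. The blood sum was mostly Lyz2 in KYZY 2 (58.1 CPM) and Hba-a1 in control 3 (6.72 CPM).

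A few members made up nearly all of the summed level of the 51 members. The 51 members together summed to 1659 to 2080 CPM in KYZY, 1623 to 1910 CPM in stress and 1458 to 2043 CPM in control libraries. The 11 members that averaged 20 CPM or more held 91.9% of the members' mean level, and 36 tested members below that held nearly all the rest. The limit of 20 CPM was chosen after the values were seen. Per kb of exon, the highest members were Cox8a (264 CPM per kb, mean of 9 libraries), Atp5b (118), Cox10 (107), Uqcrc2 (103) and Atp5a1 (57.3). Of the 51 members, 47 passed the filter on low counts. The other 4, Cox7a1, Cox7b2, Cox8b and Cox8c, were at or under the floor in all 9 libraries.

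**Figure D1:**
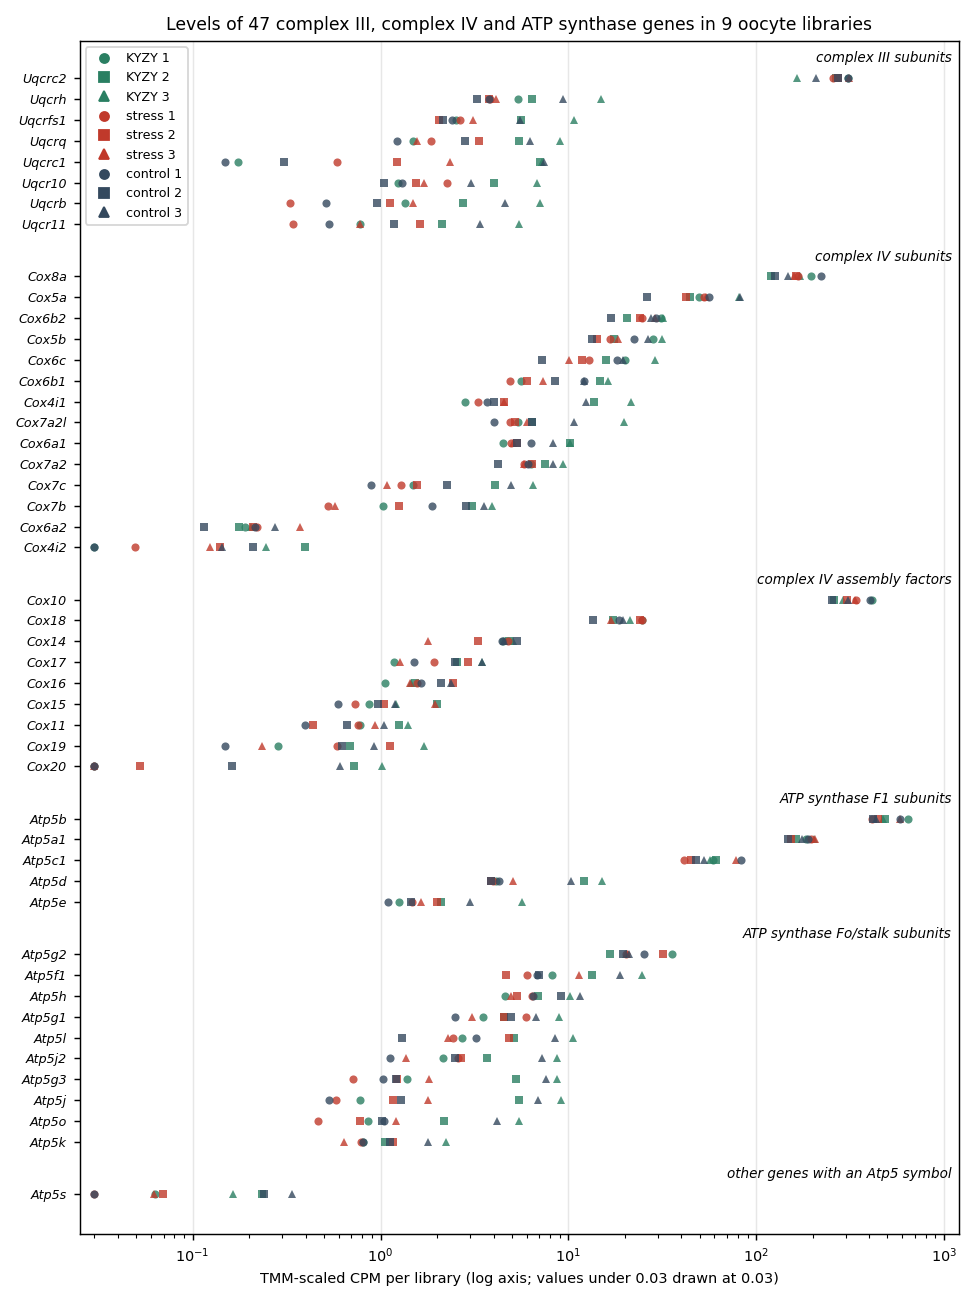
Level of each of the 47 tested members in each library, in TMM-scaled CPM on a log axis, grouped by complex; colour marks the group and symbol the library number. The abundant members lie close together across the 9 libraries, while in most lower members KYZY 2, KYZY 3 and control 3 stand to the right.

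In complex III, 1 subunit stood far above the others. Uqcrc2, which encodes core protein 2, had 309, 267 and 164 CPM in KYZY, 256, 274 and 312 CPM in stress and 307, 273 and 207 CPM in control libraries, and the groups overlapped. Uqcrc2 lies at chr7:120635189-120659523 on the plus strand (GRCm38), where its exons overlap those of Pdzd9, and the protocol kept no strand. Its partner Uqcrc1, core protein 1, which was singled out after its values were seen, had 0.174, 7.09 and 7.28 CPM in KYZY, 0.589, 1.23 and 2.34 CPM in stress and 0.149, 0.306 and 7.41 CPM in control libraries. The high Uqcrc1 libraries were KYZY 2, KYZY 3 and control 3, and 2 libraries were under the floor. Per kb of exon, the mean Uqcrc2 level was 145 times that of Uqcrc1, or 116 times with the length of the longest transcript.

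The other 6 complex III subunits averaged 1.80 to 6.10 CPM. Uqcrh, the hinge protein, had 5.37, 6.42 and 14.96 CPM in KYZY, 3.85, 3.79 and 4.11 CPM in stress and 3.77, 3.26 and 9.39 CPM in control libraries. Uqcr10, a small structural subunit, had 1.23, 4.04 and 6.77 CPM in KYZY, 2.26, 1.55 and 1.71 CPM in stress and 1.31, 1.04 and 3.05 CPM in control libraries. In Uqcrfs1, the Rieske iron-sulfur protein that takes electrons from ubiquinol, the values were 2.51, 5.61 and 10.7 CPM in KYZY, 2.64, 2.06 and 3.12 CPM in stress and 2.40, 2.16 and 5.53 CPM in control libraries. KYZY 3 was the highest library for all 3 genes, and control 3 was the highest control library. Uqcrb, Uqcrq and Uqcr11 ranged from 0.331 CPM (Uqcrb in stress 1) to 8.98 CPM (Uqcrq in KYZY 3). Uqcrh is 1 of 7 members with annotated pseudogene copies, which could share its reads.

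In complex IV, the small subunit gene Cox8a, at chr19:7215158-7217616 on the minus strand, had 195, 119 and 170.3 CPM in KYZY, 166, 163 and 158 CPM in stress and 223, 126 and 148 CPM in control libraries. Cox5a, a matrix-side subunit, had 49.8, 44.2 and 81.0 CPM in KYZY, 52.8, 42.2 and 53.8 CPM in stress and 56.3, 26.2 and 82.3 CPM in control libraries. For both genes every group overlapped the others. Cox4i1, the regulatory subunit IV that binds ATP, stood much lower, at 2.81, 13.7 and 21.6 CPM in KYZY, 3.31, 4.57 and 4.55 CPM in stress and 3.70, 4.03 and 12.4 CPM in control libraries. Per kb, mean Cox8a was 52.0 times Cox4i1, or 28.9 times by the longest transcript. KYZY 2, KYZY 3 and control 3 were again the high libraries for Cox4i1, whose exons overlap those of Emc8.

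Several complex IV subunits exist as paralogs, a widely expressed form and one known from heart and skeletal muscle, lung or testis, and the oocyte libraries held mainly the widely expressed form, with 1 exception. Cox4i1 made up 90.7% to 100% of the 2 Cox4 genes per kb in the 9 libraries, while Cox4i2, known from lung, had 0 to 0.396 CPM and was at or under the floor in 6 libraries. Cox6a1 made up 93.0% to 98.2% of its pair, with 4.52, 10.1 and 10.2 CPM in KYZY, 4.94, 5.34 and 5.09 CPM in stress and 6.32, 5.32 and 8.32 CPM in control libraries. Its muscle paralog Cox6a2 had 0.115 to 0.373 CPM. Cox7a2 had 6.36, 7.52 and 9.32 CPM in KYZY, 5.81, 6.43 and 5.84 CPM in stress and 6.12, 4.24 and 8.32 CPM in control libraries, or 98.1% to 100% of its pair. The muscle form Cox7a1 had 8 counts in stress 2 and 0 elsewhere. Cox8a held 99.9% to 100% of the Cox8 genes, with Cox8b at 5 counts in control 3 alone and Cox8c at 6 counts each in stress 1 and stress 3. Cox7b2 had 0 counts in all 9 libraries, which allows up to 0.245 CPM in the shallowest.

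The exception was subunit VIb, where Cox6b2, known as the testis form, was the larger share in most libraries. Cox6b2, at chr7:4751792-4753094 on the minus strand, had 31.3, 20.4 and 31.9 CPM in KYZY, 24.7, 24.0 and 29.1 CPM in stress and 29.5, 16.9 and 27.6 CPM in control libraries. Cox6b1, the widely expressed form at chr7:30616971-30626114 on the minus strand, had 5.59, 14.7 and 16.3 CPM in KYZY, 4.91, 6.05 and 7.34 CPM in stress and 12.1, 8.51 and 12.1 CPM in control libraries. The share of Cox6b2 per kb of the pair was 78.2%, 47.03% and 55.6% in KYZY, 76.3%, 71.7% and 71.7% in stress and 60.8%, 55.9% and 59.3% in control libraries. Stress and control libraries did not overlap in this share (73.2% ± 2.64 in stress and 58.7% ± 2.51 in control, SD, n = 3 each), while KYZY libraries spanned both (60.3% ± 16.1). With the length of the longest transcript, the share was 70.8% in KYZY, 81.9% in stress and 70.1% in control libraries. These shares are a description without a test.

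**Figure D2:**
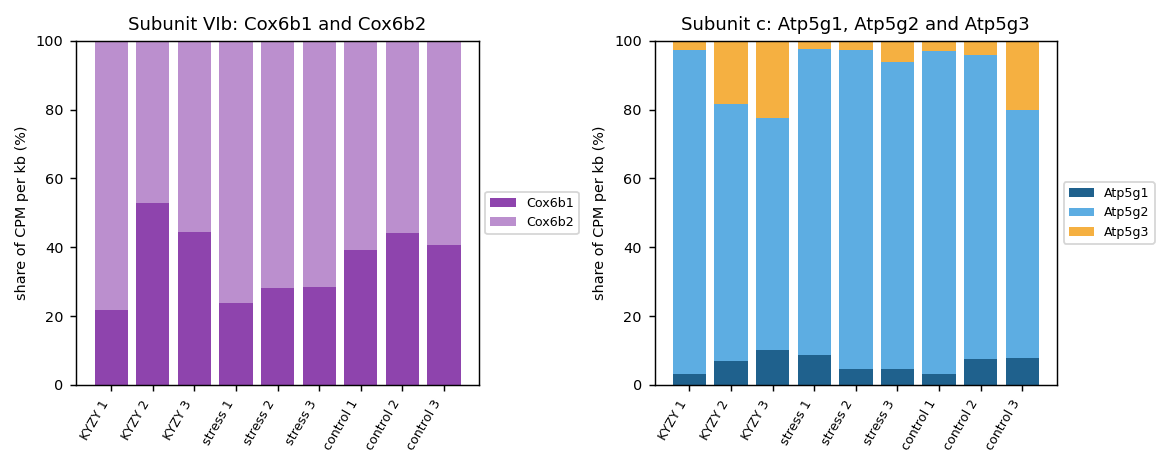
Share of CPM per kb of exon held by each paralog in each library, for subunit VIb of complex IV (left) and subunit c of the ATP synthase (right). Cox6b2 holds 71.7% to 76.3% of its pair in stress and 55.9% to 60.8% in control libraries, and Atp5g3 is largest in KYZY 2, KYZY 3 and control 3.

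The assembly factors of complex IV were led by Cox10, which makes heme O, the first step towards heme A. It had 416, 260.4 and 288 CPM in KYZY, 339.6, 305 and 336 CPM in stress and 404, 253 and 309 CPM in control libraries. Cox10 lies at chr11:63962627-64079472 on the minus strand and overlaps exons of 9630013K17Rik, so reads of the shared stretch cannot be told apart. The length of that stretch is not given here. Cox15, which carries out the second step to heme A, had 0.869, 2.00 and 1.20 CPM in KYZY, 0.736, 1.05 and 1.96 CPM in stress and 0.595, 0.965 and 1.20 CPM in control libraries. Per kb, mean Cox10 was 446 times Cox15, or 454 times by the longest transcript. Cox18, which helps to insert the subunit COX2 into the membrane, had 24.6, 17.2 and 21.2 CPM in KYZY, 24.7, 24.1 and 16.9 CPM in stress and 18.6, 13.5 and 19.4 CPM in control libraries.

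The remaining assembly factors were low and overlapped between groups, apart from Cox16 in KYZY against control. Cox14, which takes part in COX1 synthesis, had 4.49, 4.85 and 5.08 CPM in KYZY, 4.78, 3.32 and 1.78 CPM in stress and 4.43, 5.34 and 4.52 CPM in control libraries. The copper chaperone Cox17 had 1.18, 2.54 and 3.47 CPM in KYZY, 1.94, 2.94 and 1.27 CPM in stress and 1.505, 2.50 and 3.46 CPM in control libraries. Cox16 had 1.06, 1.53 and 1.45 CPM in KYZY, 1.56, 2.43 and 1.43 CPM in stress and 1.64, 2.10 and 2.38 CPM in control libraries, where all 3 KYZY values lay under all 3 control values. Without TMM factors KYZY and control overlapped for Cox16, with 1.53 CPM in KYZY 2 and 1.44 CPM in control 1. Cox11, which delivers copper to COX1, had 0.774, 1.25 and 1.41 CPM in KYZY, 0.760, 0.436 and 0.931 CPM in stress and 0.397, 0.659 and 1.04 CPM in control libraries. Cox19, a partner of Cox11, had 0.284, 0.690 and 1.71 CPM in KYZY, 0.589, 1.13 and 0.233 CPM in stress and 0.149, 0.621 and 0.925 CPM in control libraries. Cox20, a chaperone of COX2, had 0, 0.719 and 1.02 CPM in KYZY, 0, 0.0523 and 0 CPM in stress and 0, 0.162 and 0.612 CPM in control libraries. It was at or under the floor in 5 libraries, all 3 stress libraries among them, so no fold change is given for it.

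In the catalytic F1 part of the ATP synthase, the 3 largest subunits were abundant and the 2 small ones were not. Atp5b, the catalytic beta subunit at chr10:128083307-128090388 on the plus strand, had 647, 487 and 475 CPM in KYZY, 412, 444 and 583 CPM in stress and 584, 421 and 435 CPM in control libraries. Atp5a1, the alpha subunit, had 185, 163 and 203 CPM in KYZY, 196, 154 and 205 CPM in stress and 189.9, 148 and 175 CPM in control libraries, a coefficient of variation of 11.7% over the 9 libraries, the smallest among the 47 tested members. Atp5c1, the gamma subunit that turns inside the F1 head, had 58.6, 61.0 and 57.1 CPM in KYZY, 41.2, 45.0 and 77.8 CPM in stress and 82.7, 47.6 and 52.8 CPM in control libraries. All 3 genes overlapped between all groups. Atp5d, the delta subunit, had 4.12, 12.1 and 15.1 CPM in KYZY, 3.96, 3.88 and 5.08 CPM in stress and 4.27, 3.88 and 10.3 CPM in control libraries, with KYZY 2, KYZY 3 and control 3 high. Atp5e, the epsilon subunit, averaged 2.18 CPM. Per kb, mean Atp5b was 2.05 times Atp5a1, 32.5 times Atp5d and 94.6 times Atp5e, or 3.87, 52.6 and 202 times by the longest transcript.

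The Fo and peripheral stalk subunits were lower, at 1.16 to 11.2 CPM on average apart from Atp5g2. Subunit c, which forms the rotating ring, is made from 3 genes that encode the same mature protein. Atp5g2 had 35.7, 16.6 and 20.3 CPM in KYZY, 20.3, 31.97 and 20.5 CPM in stress and 25.2, 19.5 and 21.1 CPM in control libraries, and Atp5g1 had 3.51, 4.54 and 8.96 CPM, 5.92, 4.56 and 3.06 CPM and 2.48, 4.93 and 6.75 CPM in the KYZY, stress and control libraries. Atp5g3 had 1.39, 5.27 and 8.75 CPM in KYZY, 0.711, 1.23 and 1.82 CPM in stress and 1.03, 1.20 and 7.64 CPM in control libraries. The Atp5g2 share of the 3 genes per kb was thus 94.0%, 74.8% and 67.5% in KYZY, 88.8%, 92.7% and 89.4% in stress and 93.9%, 88.2% and 72.1% in control libraries. It was lowest in KYZY 2, KYZY 3 and control 3, the libraries where Atp5g3 was highest.

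Among the stalk subunits, Atp5h (subunit d) had 4.63, 6.89 and 10.2 CPM in KYZY, 6.43, 5.33 and 4.94 CPM in stress and 6.47, 9.11 and 11.6 CPM in control libraries, where all 3 stress values lay under all 3 control values. Without TMM factors these 2 groups overlapped, with 6.95 CPM in stress 1 and 5.68 CPM in control 1. Atp5o, the oligomycin sensitivity conferring protein that joins F1 to the stalk, had 0.853, 2.17 and 5.49 CPM in KYZY, 0.466, 0.776 and 1.21 CPM in stress and 1.04, 1.02 and 4.19 CPM in control libraries. Its exons overlap those of Donson. Atp5f1, Atp5j, Atp5j2, Atp5k and Atp5l ranged from 0.529 CPM (Atp5j in control 1) to 24.5 CPM (Atp5f1 in KYZY 3). Exons of Atp5j overlap those of Gabpa. Atp5s had 0.0632, 0.235 and 0.163 CPM in KYZY, 0, 0.0698 and 0.0621 CPM in stress and 0, 0.239 and 0.339 CPM in control libraries, at or under the floor in 6 of them.

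The 36 lower members varied between libraries much more than the 11 abundant ones, with a wide spread of their sums within the KYZY and control groups. The coefficient of variation over the 9 libraries had a median of 64.8% for the lower members and 19.5% for the abundant ones. The 36 lower members summed to 99.3, 185 and 303 CPM in KYZY, 92.5, 101.0 and 99.0 CPM in stress and 101, 100.3 and 221 CPM in control libraries. KYZY 3, control 3 and KYZY 2 were high, in that order, and the other 6 libraries lay close together. KYZY 2, KYZY 3 and control 3 were the 3 highest libraries for 22 of the 36 lower members and for 0 of the 11 abundant ones. Control 3 was the highest control library for 33 of the 36 and KYZY 1 the lowest KYZY library for 34 of the 36. The 11 abundant members summed to 1981, 1474 and 1544 CPM in KYZY, 1550, 1522 and 1811 CPM in stress and 1942, 1357 and 1504 CPM in control libraries.

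KYZY 2, KYZY 3 and control 3 were also the 3 libraries with the highest sums of the 31 other cumulus and granulosa markers, at 509, 767 and 406 CPM against 38.2 to 114 CPM elsewhere, of the stroma and endothelium markers and of the 16 other blood and immune markers. KYZY 3 and control 3 had the highest sums of the 14 other oviduct markers. The high values of the lower members in these 3 libraries thus stood beside high sums of these markers, some of which rested on few genes. The order of the cumulus sums depended on leaving out Serpine2 and Sdc1. With them, stress 3 had 1464 CPM, above KYZY 3 (1360 CPM) and control 3 (936 CPM). In stress 3, 23 of the 33 cumulus and granulosa markers were above the floor, and the lower members summed to 99.0 CPM. The part of other cells in the members' values was not tested. In such bulk libraries, fewer cells of a type and less RNA per cell cannot be told apart.

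**Figure D3:**
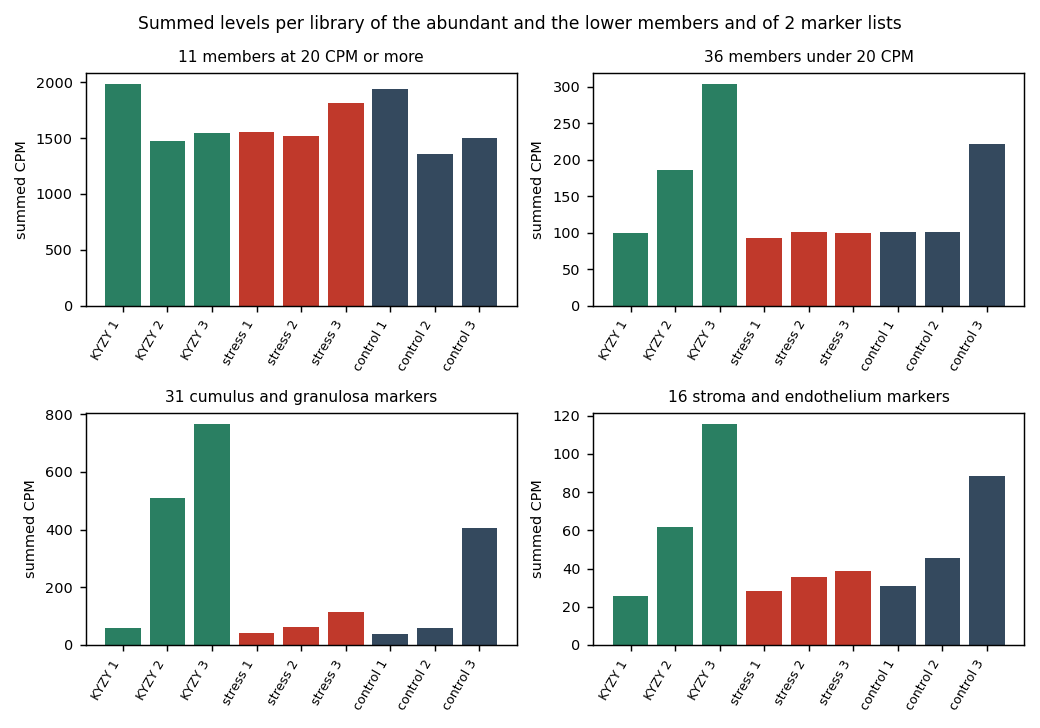
Summed TMM-scaled CPM per library of the 11 abundant members, the 36 lower members, 31 cumulus and granulosa markers (all but Serpine2 and Sdc1) and 16 stroma and endothelium markers; each bar is 1 library and colour marks the group. The lower members reach 303 CPM in KYZY 3, 221 CPM in control 3 and 185 CPM in KYZY 2, and 92.5 to 101 CPM elsewhere, and both marker panels are highest in the same 3 libraries.

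The comparison of stress with control asks what the stressors did to the oocytes. No member passed the test. Cox7b, a small complex IV subunit, had the smallest p of the 47, with 0.527, 1.25 and 0.574 CPM in stress against 1.88, 2.86 and 3.55 CPM in control libraries. Its groups did not overlap (0.783 ± 0.403 CPM in stress and 2.77 ± 0.839 CPM in control, SD, n = 3 each). The log2 fold change of stress over control was -1.81 (SE 0.547), with an adjusted p of 0.9999 over all 13890 genes and an unadjusted p of 0.00753 in edgeR's quasi-likelihood test. Cox6b1 averaged 6.10 ± 1.22 CPM in stress and 10.9 ± 2.08 CPM in control, a log2 fold change of -0.84 (SE 0.368). Atp5h averaged 5.56 ± 0.773 CPM in stress and 9.04 ± 2.54 CPM in control, a log2 fold change of -0.70 (SE 0.324). Next by p came Atp5o, at -1.35 (SE 0.768), and Cox20. At an unadjusted p under 0.05 there were 2 members, Cox7b and Cox6b1.

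Over all genes, edgeR called 0 of 13890 in stress against control (0% called, smallest adjusted p 1.00), with 373 (2.69%) at an unadjusted p under 0.05. DESeq2 called 22 genes (16 with KYZY as its reference level) and limma voom 2, and a model of these 2 groups with the replicate number as a block called 1, none of them a member. The groups did not overlap, with stress lower, for 3 members, Cox7b, Cox6b1 and Atp5h, and with stress higher for 0, against 4.38% and 3.51% of all genes. For Atp5h they overlapped without TMM factors. The fitted fold change was below 0 for 36 of the 47 members and above 0 for 11, against 54.0% and 46.0% of all genes, and the members' median log2 fold change was -0.37, against -0.035 over all genes. By class, the median was -0.54 for complex III (6 of 8 below 0), -0.35 for complex IV subunits (12 of 14), 0.017 for assembly factors (4 of 9) and -0.52 for the ATP synthase (13 of 15). Within the ATP synthase it was -0.11 for F1 and -0.64 for Fo and the stalk. Other families also lay mostly below 0 in stress over control. These were 33 of 36 complex I subunits (91.7%), 77 of 87 cytosolic (88.5%) and 58 of 78 mitochondrial ribosomal protein genes (74.4%).

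The members' median in stress over control rested on 1 library. Without control 3 it was 0.10, and 28 of the 47 fold changes were above 0 (52.7% of all genes). The sign changed for 21 of the 47, and the complex III median was 0.18. With the replicate number as a block over all 9 libraries it was -0.19, and with limma voom -0.11. The 36 lower members had a median of -0.52 (31 below 0) with all libraries and 0.11 (13 below 0) without control 3. The 11 abundant members had a median of 0.021 with all libraries. Without control 3, the log2 fold changes of stress over control were -1.59 for Cox7b, -0.75 for Cox6b1 and -0.48 for Atp5h. Without the 4 libraries of highest cumulus marker score (KYZY 2, KYZY 3, stress 3 and control 3), they were -1.40, -0.90 and -0.39 in the same order, and the members' median was 0.023.

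The comparison of KYZY with stress covers the recipe together with its gavage, after the stressors. No group with gavage alone is described, and the sequencing step was described differently for KYZY libraries. Recipe, gavage and a possible difference of run cannot be told apart here. This comparison shares the stress libraries with the one above, so the fold changes of both rest on the same 3 stress values. No member passed the test, and 8 had an unadjusted p under 0.05, all with KYZY above stress. For Cox7b, the KYZY libraries had 1.03, 3.05 and 3.94 CPM against the stress values above, and KYZY 1 lay within the stress range. It averaged 2.67 ± 1.49 CPM in KYZY and 0.783 ± 0.403 CPM in stress (SD, n = 3 each), a log2 fold change of 1.76 (SE 0.547), with an adjusted p of 0.935 and an unadjusted p of 0.00881 in edgeR. Cox6b1 averaged 12.2 ± 5.77 CPM in KYZY and 6.10 ± 1.22 CPM in stress, a log2 fold change of 1.00 (SE 0.370). Atp5d averaged 10.5 ± 5.70 CPM in KYZY and 4.31 ± 0.667 CPM in stress, a log2 fold change of 1.28 (SE 0.503).

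Cox7c, another small complex IV subunit, had 1.48, 4.08 and 6.51 CPM in KYZY, 1.29, 1.57 and 1.09 CPM in stress and 0.893, 2.26 and 4.92 CPM in control libraries, and its log2 fold change of KYZY over stress was 1.61 (SE 0.643). It has annotated pseudogene copies. Uqcrh averaged 8.91 ± 5.26 CPM in KYZY and 3.92 ± 0.170 CPM in stress, a log2 fold change of 1.18 (SE 0.476). The other 3 of the 8 were Cox6c (0.89), Uqcrfs1 (1.27) and Atp5o (1.79). KYZY 3 was the highest KYZY library in all 8 and KYZY 1 the lowest in 7 of them, Cox6c being the exception with 19.9, 15.8 and 28.8 CPM in KYZY. The 3 KYZY values lay above all 3 stress values in Uqcrh and Cox6c. Exons of Cox6c overlap those of Vps13b.

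Over all genes, edgeR called 0 of 13890 in KYZY against stress (0% called, smallest adjusted p 0.729), with 553 (3.98%) at an unadjusted p under 0.05. DESeq2 called 13 genes (8 with KYZY as its reference level) and limma voom 1, none of them a member. The groups did not overlap, with KYZY higher, for 2 members, and with KYZY lower for 1, Cox6a2, which lay near the floor, against 3.76% and 5.44% of all genes. The fitted fold change was above 0 for 39 of the 47 members and below 0 for 8, against 50.8% and 49.2% of all genes, and the members' median was 0.81, against 0.0083 over all genes. By class, the median was 1.25 for complex III (7 of 8 above 0), 0.79 for complex IV subunits (12 of 14), 0.22 for assembly factors (6 of 9) and 0.81 for the ATP synthase (13 of 15). The 36 lower members had a median of 1.04 (34 above 0) and the 11 abundant ones -0.0022 (5 above 0).

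The size of these values also followed the libraries. Without KYZY 3 the members' median was 0.50, with 37 of 47 above 0, and the ATP synthase median was 0.26. Without the 4 libraries of highest cumulus marker score, a choice made after the data were seen that leaves KYZY 1 as the only KYZY library, assumed to vary like the other groups, it was 0.072, with 27 of 47 above 0. Over all genes 43.3% were above 0 at that setting. The 36 lower members then had a median of -0.16 and the 11 abundant ones of 0.38, with 11 of 11 above 0. For comparison, 80 of 87 cytosolic ribosomal protein genes tested had a fold change above 0 in KYZY over stress, with a median of 1.45. Of the 36 complex I subunits 32 did, with a median of 0.50, and of the 78 mitochondrial ribosomal proteins 48, with a median of 0.18.

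The comparison of KYZY with control asks how oocytes after stress and the recipe differ from those of untreated mice. Gavage and the description of the sequencing step differ between these groups too. No member passed the test, and 0 had an unadjusted p under 0.05. Uqcr10 had the smallest p of the members, at 4.01 ± 2.77 CPM in KYZY and 1.80 ± 1.09 CPM in control (SD, n = 3 each), a log2 fold change of 1.16 (SE 0.591), with an adjusted p of 0.996 and an unadjusted p of 0.0778 in edgeR. Its groups overlapped. Next came Uqcrfs1 at 0.90 (SE 0.522), Cox16 at -0.60 (SE 0.359), Atp5d at 0.76 (SE 0.497) and Uqcrh at 0.70 (SE 0.471). Cox7b averaged 2.67 ± 1.49 CPM in KYZY and 2.77 ± 0.839 CPM in control, a log2 fold change of -0.051 (SE 0.529).

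Over all genes, edgeR called 0 of 13890 in KYZY against control (0% called, smallest adjusted p 0.996), with 380 (2.74%) at an unadjusted p under 0.05. DESeq2 called 1 gene (3 with KYZY as its reference level), not a member, and limma voom 0. The groups did not overlap, with KYZY lower, for 1 member, Cox16, and with KYZY higher for 0, against 4.79% and 2.43% of all genes. For Cox16 they overlapped without TMM factors. The fitted fold change was above 0 for 37 of the 47 members and below 0 for 10, against 49.7% and 50.3% of all genes, and the median was 0.42, against -0.0032 over all genes. By class it was 0.79 for complex III, 0.31 for complex IV subunits, 0.29 for assembly factors and 0.42 for the ATP synthase. The median was 0.027 without KYZY 3, where the complex IV subunits had 0.067 and complex III 0.13, and 0.80 without control 3. It was 0.19 without control 2 and 0.25 without control 1, and 0.71 with limma voom. Of other families, 79 of 87 cytosolic ribosomal protein genes had a fold change above 0 in KYZY over control. So did 23 of 36 complex I subunits and 36 of 78 mitochondrial ribosomal proteins.

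**Figure D4:**
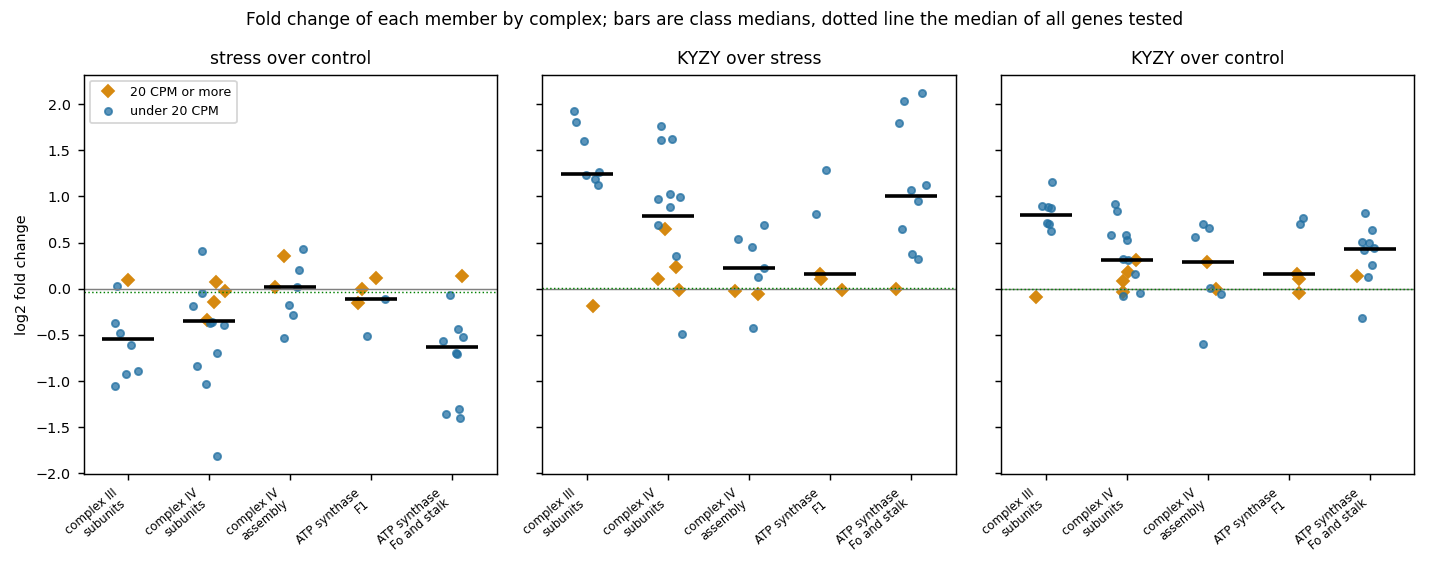
Log2 fold change of each tested member by complex in the 3 comparisons, with members at 20 CPM or more as diamonds and the others as circles; black bars are class medians and the dotted line the median of all genes tested. Cox20, at or under the floor in all stress libraries, counts in its class median and is not drawn, and Atp5s is in none of the classes. The diamonds lie between -0.34 (Cox5b, stress over control) and 0.65 (Cox5b, KYZY over stress) in the 3 panels, while the circles spread to both sides of 0 and lie mostly above it for KYZY over stress.

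Nuclear genes of these complexes share binding motifs of NRF1, ETS factors such as GABPA, and YY1 in their promoters, as known background. The 250 bases before the start of each gene (RefSeq, GRCm38.p6) were searched on both strands for the core letters of each motif. A window was found for 40 of the 51 members. The NRF1 core GCGCATGCG, whose matches on the 2 strands can overlap, was in 4 of the 40 (10.0%), against 1.49% of 27025 promoters of all genes. The ETS core CCGGAAG was in 10 (25.0%), against 7.05% of all promoters, and the YY1 core AAGATGGC in 1 (2.5%), against 1.59%. The ETS core was in 1 of 8 abundant members with a window and 9 of 29 lower ones. A match is a description of letters and not a site.

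The stretches of 5 such windows outside annotated exons follow, 5′ to 3′ along the gene, with a matched core in capitals on either strand. Cox6a1 carries the NRF1 core on both strands, and the ETS core in a stretch of its window that is not shown, Uqcrh and Uqcr11 the ETS core, and Cox7b (smallest p of the members) and Cox8a (highest per kb) none of the 3.
Cox6a1, chr5:115348982-115349129, minus strand: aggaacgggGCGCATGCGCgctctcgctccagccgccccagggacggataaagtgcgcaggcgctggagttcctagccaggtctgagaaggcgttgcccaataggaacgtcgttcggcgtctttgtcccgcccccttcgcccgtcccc
Uqcrh, chr4:116075072-116075268, minus strand: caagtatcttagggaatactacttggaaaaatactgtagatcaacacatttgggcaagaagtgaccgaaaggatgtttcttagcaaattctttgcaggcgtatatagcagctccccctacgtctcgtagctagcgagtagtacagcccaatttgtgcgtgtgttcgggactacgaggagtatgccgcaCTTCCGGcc
Uqcr11, chr10:80406831-80407071, minus strand: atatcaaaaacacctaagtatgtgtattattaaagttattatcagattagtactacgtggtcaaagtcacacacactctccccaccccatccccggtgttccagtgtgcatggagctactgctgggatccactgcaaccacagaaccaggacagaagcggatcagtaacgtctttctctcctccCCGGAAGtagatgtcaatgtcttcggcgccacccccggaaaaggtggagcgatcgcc
Cox7b, chrX:106015450-106015699, plus strand: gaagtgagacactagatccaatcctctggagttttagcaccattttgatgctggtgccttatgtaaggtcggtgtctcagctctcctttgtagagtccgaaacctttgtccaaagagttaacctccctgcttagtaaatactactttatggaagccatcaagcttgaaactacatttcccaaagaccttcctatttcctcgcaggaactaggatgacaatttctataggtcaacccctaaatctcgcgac
Cox8a, chr19:7217617-7217866, minus strand: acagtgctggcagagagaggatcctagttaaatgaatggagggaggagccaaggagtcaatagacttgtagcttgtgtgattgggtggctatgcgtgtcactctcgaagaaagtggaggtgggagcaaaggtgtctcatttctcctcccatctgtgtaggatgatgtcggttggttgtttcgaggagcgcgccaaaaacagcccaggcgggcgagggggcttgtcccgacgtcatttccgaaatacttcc

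Genes of the pathway outside the symbol rule also included abundant and low ones. Of 9 further complex III genes, 17 complex IV genes, 8 ATP synthase genes, 8 complex II genes and 13 regulators tested, 0 were called in any comparison by edgeR. Cyc1, the cytochrome c1 subunit of complex III, had 1.07, 6.70 and 7.86 CPM in KYZY, 1.31, 1.72 and 1.52 CPM in stress and 0.976, 2.04 and 7.12 CPM in control libraries, with KYZY 2, KYZY 3 and control 3 high. In complex II, Sdha, the flavoprotein subunit, averaged 127 ± 12.0 CPM in KYZY, 138 ± 20.1 CPM in stress and 138 ± 28.2 CPM in control, while Sdhb, the iron-sulfur subunit, had 0.869, 3.22 and 6.67 CPM in KYZY, 1.10, 2.24 and 1.24 CPM in stress and 0.678, 1.03 and 5.82 CPM in control libraries. Coa4, a complex IV assembly factor, averaged 1.47 ± 0.493 CPM in KYZY, 0.665 ± 0.139 CPM in stress and 1.67 ± 0.420 CPM in control, and all 3 stress values lay under all control and all KYZY values. Cyc1, Sdha, Sdhb, Coa4 and Nrf1 are named here after their values were seen. Stress lay under control without overlap for 2 of the 17 complex IV genes, against 4.38% of all genes. KYZY lay above stress without overlap for 1 of the 17, against 3.76% of all genes. Of the 17 complex IV genes, 13 had a fold change below 0 in stress over control, against 54.0% of all genes. In KYZY over stress 9 had one above 0, near the 50.8% of all genes. Of the 13 regulators, 7 were below 0 in stress over control (53.8%), near the share of all genes. Nrf1, which encodes a transcription factor of nuclear respiratory genes, averaged 18.7 ± 5.12 CPM in KYZY, 20.2 ± 3.11 CPM in stress and 29.4 ± 9.82 CPM in control, and its groups overlapped in all 3 comparisons.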

How the data were processed

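Per the labels, cDNA from the SMART-Seq v4 kit was tagmented with Tn5, which keeps neither strand nor molecular identifiers. The deposited tables hold estimated counts per gene as whole numbers, 1 table per library, and the unit was read from the values. The submitters' processing notes list StringTie, HISAT2, DESeq2, Trim Galore and bcl2fastq 2.20 and the builds GRCm38 and mm10; their roles and settings were not given in the sources used here. Low values clustered at 4 and 8, so 1 read pair appeared to be worth about 4 counts, and the floor was set at 3 read pairs. Intervals of counting error do not cover amplification.

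Counts were fitted in R 4.3.3 with edgeR 4.0.16 (TMM scaling, filterByExpr at 10 counts and a total of 15, robust quasi-likelihood, 2-sided F tests) on all 9 libraries with 6 residual degrees of freedom. The 13890 genes kept were adjusted together by Benjamini-Hochberg, with a threshold of 0.05. DESeq2 1.42.0 and limma 3.58.1 voom were alternatives, beside other scalings and filters, division by 4, a replicate block and leaving out each library. The fit was tested on simulated data. Means are given with the SD of 3 libraries, each from 1 mouse.

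Exon lengths and overlaps come from an annotation of GRCm38, and symbols or synonyms of 24645 genes (99.63%) were found in RefSeq. Exons of 16 of the 51 members overlap those of another counted gene on either strand. Among them are Cox6c (with Vps13b), Atp5d (with Cbarp) and Cox16 (with Gm20498). Values per library are given for the 3 highest members per kb in each class, the 5 of smallest p in each comparison, all paralog sets and all assembly factors. Members, lists and tests were chosen with earlier results of these data known.

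The labels name no pairing. Same-numbered stress and control libraries deviated together from their group means (Pearson r of 0.21, 0.33 and 0.35 across genes, which are not independent replicates). Stress 1 and control 2, with different numbers, also had an r of 0.33. The other differently numbered pairs of these groups were negative. Deviations from a group mean sum to 0 within the group, so positive pairs force negative ones elsewhere. The negative values are thus no separate evidence on pairing. As an alternative, the replicate number was fitted as a block in every comparison.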

Additional observations from a re-analysis of the deposited data

How the results depend on the processing

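No member was called by edgeR, DESeq2 or limma voom, with the replicate block, or without any 1 library, in any comparison. The sign of the fold change differed for 21 of the 47 members without control 3 in stress over control and for 15 without KYZY 3 in KYZY over control, and for 0 to 8 without any other library. Without the 4 libraries of highest cumulus marker score it differed for 17 in stress over control, 24 in KYZY over stress and 20 in KYZY over control. Counts of genes called over the whole table in stress against control were 22 with DESeq2 (16 with KYZY in place of control as its reference level, a setting added after the data were seen), 2 with limma voom, 1 with the replicate block in these groups only, and 0 to 2 without 1 library each. In KYZY against stress they were 13 with DESeq2 (8 with that reference level), 1 with limma voom, 1 with only these groups, 4 with the replicate block in these groups only, and 0 to 1 without 1 library each. In KYZY against control they were 1 with DESeq2 (3 with that reference level) and 0 to 3 without 1 library each, the 3 without control 3. Without the 4 libraries of highest cumulus marker score they were 148, 115 and 119 in the order of these comparisons, from a fit with few residual degrees of freedom; the cause was not tested.

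Leaving out 1 library each, the members' median log2 fold change was -0.56 to 0.10 in stress over control, 0.50 to 0.98 in KYZY over stress and 0.027 to 0.80 in KYZY over control. For the ATP synthase it was -0.72 to 0.12 in stress over control and -0.013 to 1.19 in KYZY over control. For complex III it was -0.85 to 0.18 in stress over control and 0.13 to 1.61 in KYZY over control. The ATP synthase in KYZY over stress had 0.26 to 1.18, and complex IV subunits in KYZY over control 0.067 to 0.55. For assembly factors it was -0.46 to 0.041 in stress over control and 0.056 to 0.54 in KYZY over stress. Without the 4 libraries, the medians of KYZY over stress were 0.072 for the members, -0.11 for complex III, 0.077 for complex IV subunits and 0.087 for the ATP synthase, and that of assembly factors in KYZY over control was -0.095. The cause was not tested.

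Without TMM factors the members summed to 1775 CPM in KYZY 1, 1527 CPM in stress 3 and 1856 CPM in control 2, against 2080, 1910 and 1458 CPM with them. By the longest transcript, the share was 97.5% for Cox4i1 and 92.8% for Atp5g2 in stress, and that of Cox6b2 was 81.9% in stress and 70.1% in control libraries. Same-numbered KYZY and stress libraries had correlations of 0.37, -0.20 and 0.12, and KYZY and control libraries 0.56, -0.12 and 0.63. The replicate number was fitted as a block there too, as an alternative only. The standard error on the log2 scale in stress over control was 0.28 to 2.15 for the 36 lower members (median 0.55). For the 11 abundant ones it was 0.21 to 0.38. The difference of -1.81 in Cox7b, the member of smallest p, was not called.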

Other observations

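Among regulators of the nuclear and mitochondrial genes of respiration, 13 were tested and 0 were called in any comparison by edgeR, with 1 (Nrf1, in KYZY against control) at an unadjusted p under 0.05. Gabpb1, the beta subunit of the ETS factor GABP, averaged 26.7 ± 3.41 CPM in KYZY, 28.2 ± 3.72 CPM in stress and 28.1 ± 0.965 CPM in control (SD, n = 3 each), while Gabpa, its DNA-binding subunit, had 0.0632, 1.73 and 0.653 CPM in KYZY, 0.135, 0 and 0.435 CPM in stress and 0, 0.0955 and 0.430 CPM in control libraries. Several of the Gabpa values were under the floor. The exons of Gabpa overlap those of the member Atp5j, and the protocol kept no strand. The coactivator gene Ppargc1b averaged 6.76 ± 0.384 CPM in KYZY, 7.28 ± 0.436 CPM in stress and 6.64 ± 0.664 CPM in control, while its relative Ppargc1a was at 0 in 8 of the 9 libraries. Tfam, which packages mitochondrial DNA, averaged 3.47 ± 0.634 CPM in KYZY, 3.27 ± 0.128 CPM in stress and 3.25 ± 0.700 CPM in control.

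The genes of this paragraph and the one before were named after their values were seen. Yy1, a transcription factor with known binding motifs in promoters of respiratory genes, had 0.584, 0.749 and 1.02 CPM in KYZY, 0.442, 0.209 and 0.341 CPM in stress and 0.694, 0.497 and 1.25 CPM in control libraries. The 3 stress values lay under all KYZY and all control values, and the log2 fold change was -1.30 for stress over control and 1.24 for KYZY over stress, with an unadjusted p above 0.05 in each by edgeR. Such a separation held for 1 of the 13 regulators in each of these comparisons, against 4.38% and 3.76% of all genes. Cycs, which encodes the cytochrome c that carries electrons between complexes III and IV, averaged 13.6 ± 3.14 CPM in KYZY, 14.9 ± 1.15 CPM in stress and 13.6 ± 6.12 CPM in control. Atpif1, the inhibitor of the ATP synthase, had 2.31, 3.597 and 8.35 CPM in KYZY, 2.43, 3.00 and 1.47 CPM in stress and 0.959, 2.71 and 5.64 CPM in control libraries, with KYZY 3 and control 3 again the highest.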
